A study of Bos taurus with 14 samples.

Results

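Ribosomal proteins of the cytosolic ribosome were measured in 14 bovine conceptuses of gestation Day 15. The members are all probe sets of the array whose single gene symbol begins with RPL, RPLP or RPS followed by a digit, without the S6 kinase (RPS6K) genes. They numbered 97 probe sets of 68 genes, out of 24016 probe sets and 9155 named genes in all. The rule uses gene symbols only, but it was chosen with earlier results of these data known. By role, 48 probe sets belonged to the large subunit, 31 to the small subunit and 4 to the stalk, and these 83 probe sets of 61 genes are called the core proteins here. The other 14 were 10 probe sets of the 5 paralogs RPL3L, RPL7L1, RPL26L1, RPS27L and RPS4Y1, 3 named RPL15P, a pseudogene by its symbol, and 1 of RPS19BP1, which binds RPS19 and is no ribosomal protein. Other RefSeq genes that fit the symbol pattern, such as RPLP1, RPS4X and RPS27A, were not analysed here. The probe sets named RPL15P and RPS4Y1 may also bind the near-identical transcripts of RPL15 and RPS4X, and which of these their values measure is not known.

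All conceptuses were Holstein and shared 1 Holstein sire. Embryos were flushed from superovulated cows on Day 6.5, graded by morphology, transferred to Holstein heifers in groups of 2 to 6 of the same grade, and recovered on Day 15, a time of rapid trophoblast elongation in this species. The Grade 1 embryos gave 11 conceptuses, of which 5 were marked long (1 male, 4 females), 5 short (2 males, 3 females) and 1 male carried no length. The Grade 3 embryos gave 3 conceptuses, 2 males and 1 female, and no length is given for them. Which conceptuses shared a dam or a recipient is not given, so the p-values rest on the spread among these samples and take them as independent. One short conceptus, Grade 1 short replicate 1, is called long in another of its labels.

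A ribosome holds 1 copy of nearly every ribosomal protein, so cells make these proteins in near-equal amounts and tune them together, in large part at translation through the pyrimidine tract that starts their mRNAs. The growth kinase mTOR drives both that translation and the making of ribosomal RNA. Fast-growing embryonic tissue depends on new ribosomes, and ribosomal proteins left without a partner, RPL5 and RPL11 above all, bind MDM2 and raise p53.

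The tissue label was checked on its markers. Of 12 measured trophoblast markers, interferon tau (IFNT2), the pregnancy-associated glycoprotein PAG11, the keratin KRT18 and the Kunitz protein TKDP1 gave mean log2 values of 14.53, 14.48, 14.47 and 14.44, at the top of the array. The lowest of the 12 were KRT8 at 6.16, ELF5 at 6.64, TEAD4 at 8.25 and PAG12 at 8.44. Marker sums here are the log2 of summed unlogged signals, so the brightest markers weigh most. The sum of all 12 was 16.91 to 16.98 in long and 16.46 to 16.87 in short conceptuses. PAG12 and TFAP2A were called higher and ASCL2 lower in long. Of 9 hypoblast markers the sum was 13.99 to 14.43 in long and 13.61 to 14.04 in short conceptuses, with APOA1 and RBP4 called higher in long, but 6 of the 9 lay below 0 and PDGFRA was called lower, by -1.80 (limma, adjusted p = 0.00759). Epiblast markers (3 genes) summed to 7.60 to 8.33 in long and to 8.07 or more in short conceptuses; all 3 lay below 0, and DNMT3B was called, at -0.39 (limma, adjusted p = 0.0337). Endothelial markers (8 genes) summed to 7.13 to 7.47 in long and 6.90 to 7.03 in short conceptuses. PECAM1, at 0.99 (limma, adjusted p = 0.00902), was the only one of these called, and the other 7 ran from -0.19 to 0.12. Blood and immune markers (12 genes) summed to 8.35 to 8.67 in long and 8.59 to 9.03 in short conceptuses, with CD8A called lower in long. Erythroid markers (9 genes) summed to 7.17 to 7.44 and markers of endometrial epithelium (8 genes) to 7.67 to 8.38 over all conceptuses, with 0 called by length (limma, 0 and 1 at an unadjusted p under 0.05). Sums over different probes cannot be set against each other. RNA quality, read from the log2 signal of the 3′ minus the 5′ actin control, overlapped between long (1.34 to 1.84), short (1.29 to 1.75) and Grade 3 conceptuses (1.48 to 1.60). The part of cell mix in the differences below was not tested. In whole conceptuses, fewer cells of a type and less RNA per cell cannot be told apart.

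Nearly every ribosomal protein gene gave a signal close to the top of the array. Of the 68 genes, 61 had a probe set with a mean log2 value of 12 or more, called bright here, and 62 of the 63 bright probe sets lay between 13.36 and 14.16, while the highest value on any array was 14.61. Members made up 25 of the 50, 52 of the 100 and 62 of the 200 brightest probe sets. The brightest were RPL13A, at 14.16, RPS3A, at 14.12, and RPS12, at 14.11. These are signals of different probes and do not rank the transcripts.

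Signals near the ceiling are compressed, and the spread of the members shows how little they moved. The SD within groups was 0.029 at the median over the 62 members at 13 or more, and 0.057 over 142 other probe sets in that range. The size of the long against short difference was 0.05 at the median for these members and 0.06 for the others. Neither the members (0 of 62) nor the others (3 of 142, or 2.11%) were often called there, against 14.3% of other probe sets between 10 and 12. How much a true change in transcript number was reduced by compression was not tested.

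**Figure D1:**
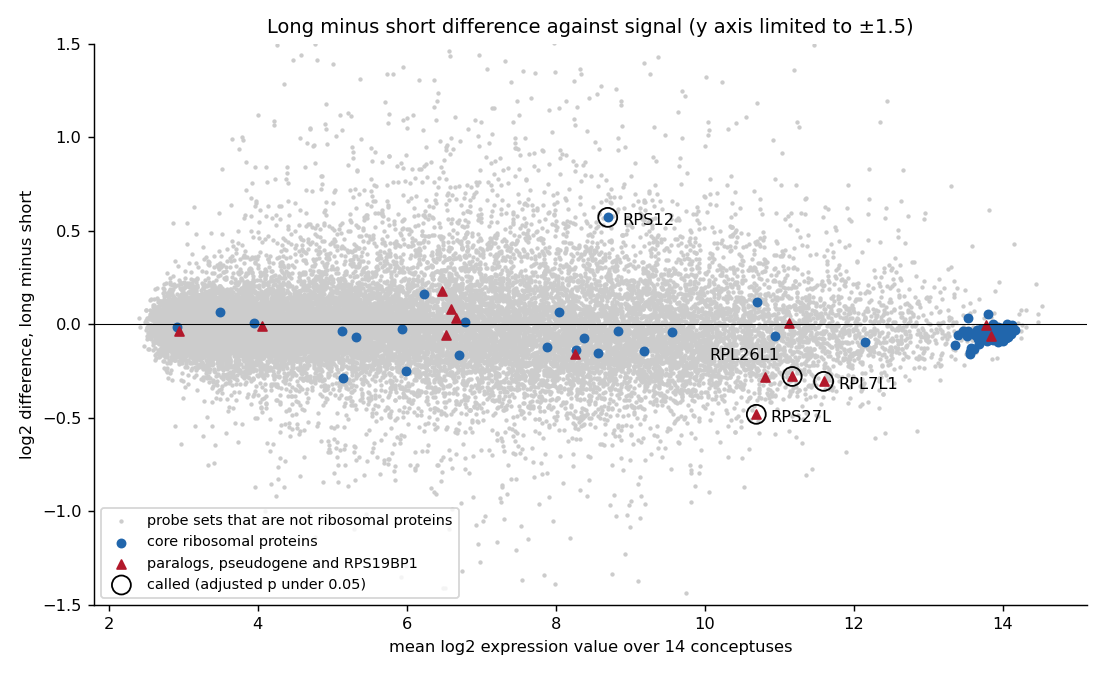
Log2 difference, long minus short (vertical axis), against the mean log2 expression value over 14 conceptuses (horizontal axis) for core ribosomal proteins (blue circles), the other members (red triangles) and all other probe sets (grey), of which 55 lie outside the plotted range of 1.5 either way. Most members crowd between 13.36 and 14.16 just below 0, and the 4 ringed members that passed the test all lie under 12.

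The remaining 34 member probe sets had means under 12. Of these, 23 belonged to genes that also had a bright probe set, so the same gene gave very different signals through different probes. The dimmest were RPS19 (2.92), RPS27L (2.94), RPL37 (3.50), RPS7 (3.95) and RPL3L (4.05). For RPL3L, the paralog of RPL3 known from heart and skeletal muscle, no other probe set was analysed. For RPS19 and RPL37, which every ribosome carries, the low values show only that these probes gave little signal. In 8 of the 19 genes with several probe sets the probe sets differed in the sign of the long minus short difference, and in RPL7L1 and RPS12 the gap was over 0.3.

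The main comparison asked which transcripts differ between long and short conceptuses of the same embryo grade. Of the 5 paralogs, RPS27L, RPL26L1 and RPL7L1 were lower in long conceptuses through 1 probe set each. The core proteins themselves differed by at most 1.12 fold at the bright probe sets, and none of these passed the test. Paralogs and core proteins were not compared at like signal. The called paralog probe sets had means between 10 and 12, where 14.3% of other probe sets were called, against 2.11% at 13 or more. Of the 97 member probe sets, 3 were lower and 1 was higher in limma's test (Benjamini-Hochberg adjusted p under 0.05 over all probe sets), a smaller share than the 6.57% called over all probe sets (3.87% lower and 2.7% higher). At an unadjusted p under 0.05 there were 8 of 97 members, against 22% of all probe sets. The count of 4 depended on single conceptuses. It was 1 without long replicate 1, long replicate 2 or short replicate 4, and 0 without long replicate 5 or short replicate 5. Calls over all probe sets fell as well, from 1577 to 655, 532, 460, 510 and 704 in that order. The member count was also 0 with the conceptus of conflicting labels counted as long and with title prefixes fitted as fixed blocks. It was 0 too without the 2 short conceptuses lowest on the first principal component. Over all probe sets these settings gave 492, 112 and 51 calls. With fixed blocks, only the 2 prefixes that held both lengths inform the length difference. On the first component every long conceptus lay above every short one. The 2 left out were thus the short ones furthest from the long, so fewer calls were to be expected.

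RPS27L, a p53-induced paralog of the small subunit protein RPS27, differed most among the lower members. Its log2 values were 10.29, 10.26, 10.35, 10.81 and 10.49 in the 5 long conceptuses and 10.91, 10.81, 10.90, 10.89 and 11.09 in the 5 short ones. The groups did not overlap, but long replicate 4 came within rounding of the lowest short conceptus, while the other long ones lay clearly below. The mean was 10.44 ± 0.22 (SD, n = 5) in long and 10.92 ± 0.11 (SD, n = 5) in short conceptuses, a log2 difference of -0.48 with an SE of 0.10, or 1.40 fold lower in long (limma, adjusted p = 0.0244). Within the 2 title prefixes that held both lengths the difference was -0.53 (2 long, 1 short) and -0.55 (1 long, 2 short). The call was lost without long replicate 1, 2 or 5 or short replicate 4 or 5, with adjusted p up to 0.0626 in limma. RPS27 itself was at 13.77 ± 0.01 (SD, n = 5) and 13.80 ± 0.02 (SD, n = 5), a difference of -0.03 (limma, adjusted p = 0.821).

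RPL26L1, a near copy of RPL26, which lies at the exit of the peptide tunnel, was lower in long conceptuses with little spread. Its log2 values were 10.96, 11.15, 11.12, 11.04 and 11.06 in long and 11.36, 11.34, 11.31, 11.27 and 11.45 in short conceptuses. Every long conceptus lay below every short one. The difference was -0.28 with an SE of 0.06, or 1.21 fold (limma, adjusted p = 0.0252), and the call was lost without long replicate 1, 4 or 5 or short replicate 5 (adjusted p up to 0.0632). RPL26 also showed no overlap, with 13.87 to 13.93 in long and 13.94 to 14.03 in short conceptuses, but its difference of -0.08 did not pass (limma, adjusted p = 0.378).

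RPL7L1, whose yeast relative acts in the assembly of the large subunit, showed a difference of like size. The log2 values of its brightest probe set were 11.40, 11.31, 11.56, 11.56 and 11.43 in long and 11.67, 11.75, 11.75, 11.77 and 11.85 in short conceptuses. All long values lay below all short values. The difference was -0.30 with an SE of 0.07, or 1.24 fold (limma, adjusted p = 0.0263), and the call was lost without long replicate 1, 2 or 5 or short replicate 4 or 5 (adjusted p up to 0.0649). Its other probe sets, at means of 6.66 and 6.52, differed by 0.03 and -0.06 and were not called. RPL7 had 13.87 to 13.94 in long and 13.91 to 13.96 in short conceptuses, a difference of -0.03.

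RPS12, a protein of the small subunit, was called higher in long conceptuses through 1 of its 4 probe sets. That probe set read 8.48, 9.41, 8.95, 9.06 and 9.33 in long and 8.33, 8.54, 8.67, 8.41 and 8.42 in short conceptuses. The groups overlapped, since long replicate 1 lay among the short ones. The difference was 0.57 with an SE of 0.15, or 1.49 fold (limma, adjusted p = 0.0484). The brightest RPS12 probe set, at 14.09 ± 0.01 (SD, n = 5) and 14.14 ± 0.04 (SD, n = 5), differed by -0.05 the other way, and the remaining probe sets by 0.01 and -0.07, and none of these passed the test. The call was lost in 9 of the 10 settings that left out 1 conceptus, all but that without long replicate 1, with adjusted p up to 0.111 in limma.

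The other paralogs differed little. RPL3L, at a mean of 4.05, differed by -0.01, and RPL3 by -0.03 at its bright probe set. RPS4Y1, which the RefSeq gene table of this assembly does not place on a sex chromosome, differed by -0.00467 at its bright probe set. RPS19BP1 was at 10.67 ± 0.18 (SD, n = 5) in long and 10.95 ± 0.06 (SD, n = 5) in short conceptuses, a difference of -0.28 with an SE of 0.08 that missed the threshold (limma, adjusted p = 0.07).

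**Figure D2:**
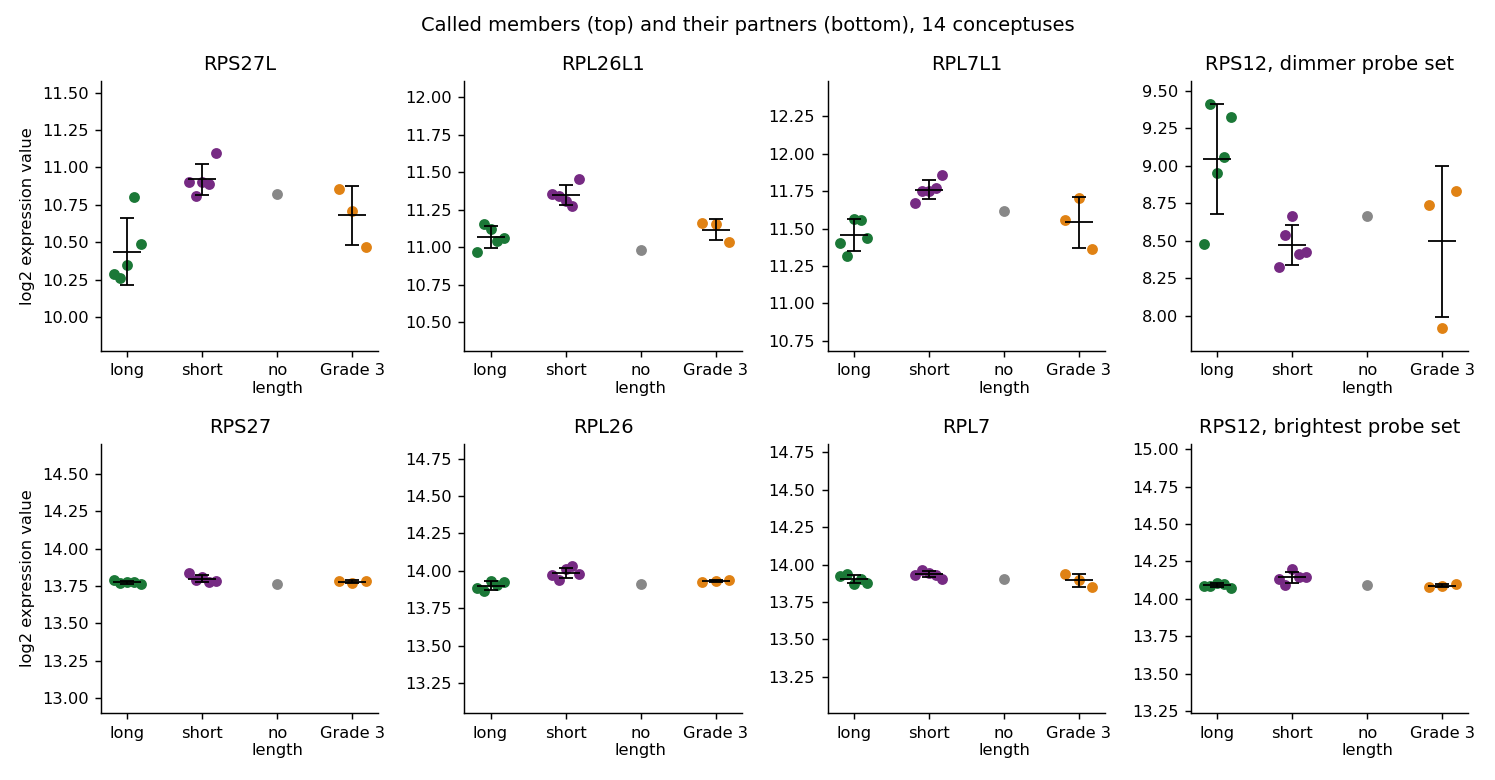
Log2 expression values of each conceptus for the 4 called probe sets (top) and for RPS27, RPL26, RPL7 and the brightest RPS12 probe set (bottom), by group; bars give the mean and SD where a group has more than 1 conceptus, and every panel spans the same height. RPS27L, RPL26L1 and RPL7L1 were lower in long than in short conceptuses with no overlap, and the 3 Grade 3 values of RPS27L ran from 10.47 to 10.86.

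The core proteins leaned one way by a small amount. Over the 61 bright core probe sets (59 genes) the difference ran from -0.16 to 0.05 with a median of -0.05, and 57 of 61 lay below 0. Over all 97 members the median was -0.05 with 84.5% below 0, against -0.02 and 55.7% over all probe sets. Bright probe sets that are not members leaned the same way, with 326 of 534 below 0 and a median of -0.04. After a further round of quantile normalisation 46 of the 61 bright core probe sets (75.4%) lay below 0, not 93.4%, and their median was -0.03.

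No bright core protein passed the test, and the 95% interval of a difference reached 0.11 to each side at the median. In simulated data with 200 changed probe sets of any signal level, the length test recovered 0% of 1.1-fold changes. The SD within the length groups was 0.145 at the median over all probe sets and 0.032 over bright core ones. How often it would recover such changes at bright core probe sets alone was not tested. The long and short groups failed to overlap in 16 of the 97 members, all of them lower in long, against 8.42% of all probe sets with no overlap in either direction; 12 of the 16 were bright core probe sets. limma pulled the SD of bright core probe sets up from 0.032 to 0.081 at the median, because it shares 1 typical spread of 0.137 over all probe sets. With a spread that follows the signal (trend and robust settings), 7 members were called instead of 4. The added ones were RPS9, RPS10 and RPS19BP1, and all were lower in long conceptuses, with adjusted p = 0.0139, 0.0493 and 0.0439 in limma. The share of all probe sets called under that setting was 7.46%.

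RPS9, a small subunit protein near the decoding site, had the largest difference of the bright core probe sets. Its log2 values were 13.48, 13.51, 13.48, 13.47 and 13.45 in long and 13.67, 13.56, 13.65, 13.68 and 13.64 in short conceptuses. The groups did not overlap, and short replicate 2 was the lowest of its group. The difference of -0.16 with an SE of 0.05 was not called in the main test (limma, adjusted p = 0.0917). RPS10 read 13.87 to 13.91 in long and 13.96 to 14.01 in short conceptuses, a difference of -0.10 (limma, adjusted p = 0.291).

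In the small subunit all 21 bright probe sets lay below 0, with a median of -0.04. RPS6, the substrate of S6 kinase, differed by -0.02, RPS3, which lies at the mRNA entry, by -0.05, and RPS18, often used as a reference gene, by -0.04. RPS24 and RPS26, which are mutated in Diamond-Blackfan anaemia, differed by -0.03 and -0.02. None of these passed the test, and each interval included 0.

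In the large subunit 33 of 37 bright probe sets lay below 0, with a median of -0.05. The largest differences were those of RPL36A (-0.15), RPL28 (-0.13), RPL29 (-0.13), RPL10A (-0.11) and RPL8 (-0.11). For RPL28, long replicate 2 read 13.30 and the other long conceptuses 13.55 to 13.63. RPL5 and RPL11, the pair that binds MDM2 with 5S RNA, differed by -0.03 and -0.05, and RPL4, an early assembling protein, by 0.00. The reference gene RPL13A differed by -0.03, RPL38 by -0.08, RPL23 by -0.06 and RPL35A by -0.04. Only RPL22, RPL4 and the 2 probe sets of RPL10 lay at or above 0, with 0.05 as the highest value. The stalk proteins, which recruit the elongation factors, differed by -0.07 and -0.06 for the bright RPLP0 probe sets and by -0.08 for RPLP2.

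Genes that build ribosomes were lower in long conceptuses. Of 80 measured ribosome assembly genes, each taken at its brightest probe set, 46 were lower and 0 higher in long conceptuses (limma, adjusted p under 0.05), or 57.5%, against 6.24% lower over all 9155 genes. Their median difference was -0.34, against -0.03 over all genes, and 78 of 80 lay below 0, against 58.8% of all genes. In 51 of 80 every long conceptus lay below every short one, against 5.52% of all probe sets. These shares are not matched for signal: most assembly genes had means between 8 and 12, and all probe sets include many dim ones. Of probe sets that are not members, 2.06% were called under 6, 13.7% between 8 and 10 and 14.3% between 10 and 12. The assembly list was chosen with earlier results of these data known. The count of 46 became 17 without long replicate 1 or long replicate 2, 13 without short replicate 4 or long replicate 5, and 20 without short replicate 5. It was 19 with the conceptus of conflicting labels counted as long, 2 with title prefixes as fixed blocks and 1 without the 2 short conceptuses lowest on the first component. Lower calls over all probe sets fell as well, from 929 to 359, 296, 247, 276, 377, 222, 48 and 27 in that order. The 2 prefixes that held both lengths had 2 long with 1 short and 1 long with 2 short conceptuses, all also in the main test. Within them 78 and 79 of the 80 genes lay below 0, against 54.1% and 55.4% of all probe sets. The medians of the 80 genes were -0.32 and -0.24.

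PPAN, a factor of large subunit assembly, was at 8.11 ± 0.16 (SD, n = 5) in long and 8.81 ± 0.13 (SD, n = 5) in short conceptuses, a difference of -0.70 with an SE of 0.09 (limma, adjusted p = 0.00788). UTP4, part of the complex that processes the small subunit RNA, was at 8.74 ± 0.13 (SD, n = 5) and 9.38 ± 0.12 (SD, n = 5), a difference of -0.64 (limma, adjusted p = 0.00788). NAT10, the RNA acetyltransferase of the nucleolus, differed by -0.60, EMG1, a methyltransferase of the small subunit RNA, by -0.55, RRP15 by -0.40 and EBNA1BP2 by -0.39, and all of these were called. The assembly genes had lower signals than the core proteins, and how far the ceiling sets the gap between the groups was not tested.

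Of 19 genes of ribosomal RNA transcription, 7 were lower and 0 higher in long conceptuses, against 6.24% and 3.27% of all genes. All 19 lay below 0, against 58.8%, and the median was -0.27. The called ones included POLR1C and POLR1G, subunits of RNA polymerase I, at -0.41 and -0.56 (limma, adjusted p = 0.0207 and 0.0208), and TAF1A and TAF1B, of its promoter factor SL1, at -0.41 and -0.69. The count of 7 fell to 0 without short replicate 4, to 1 without long replicate 1 or long replicate 5, to 3 without long replicate 3, short replicate 3 or short replicate 5, and to 4 without long replicate 2 or long replicate 4. It was also 0 without the 2 short conceptuses lowest on the first component. With title prefixes as fixed blocks it was 1, and with the conflicting conceptus taken as long it was 3. Lower calls over all probe sets fell from 929 to between 247 and 650 without these single conceptuses. They were 27 without the 2 short conceptuses, 48 with fixed blocks and 222 with the conflicting conceptus as long.

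**Figure D3:**
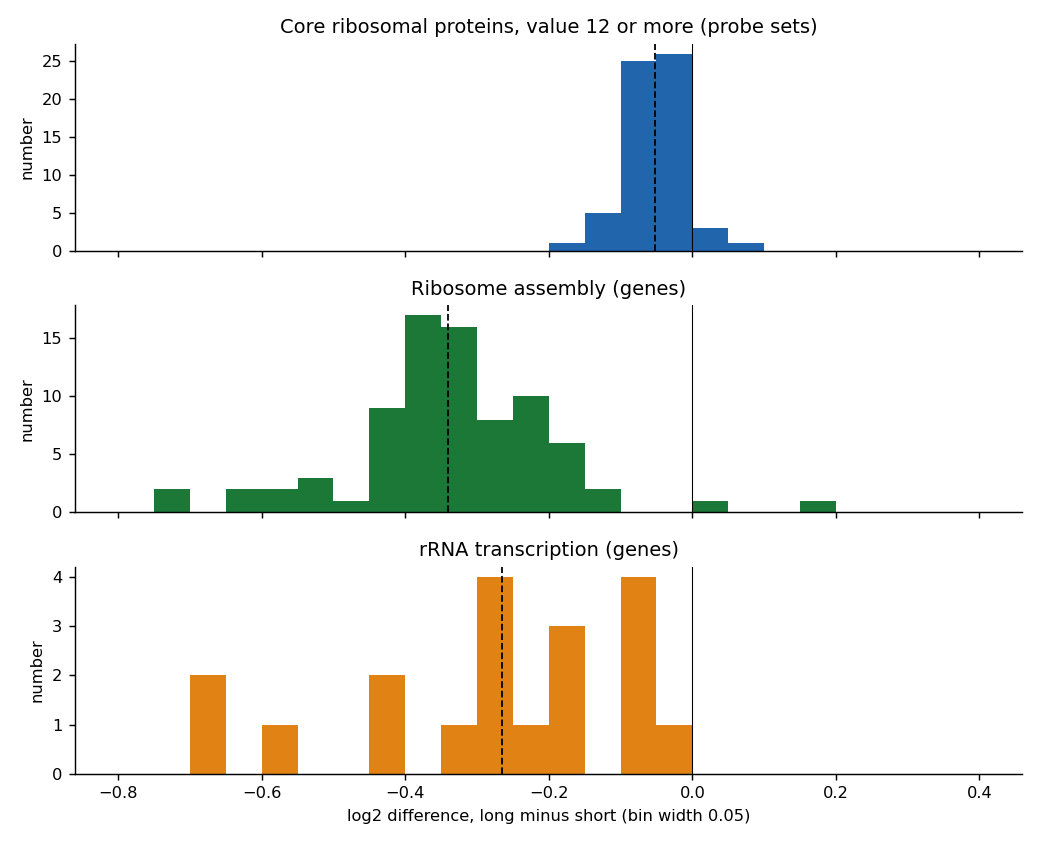
Number of probe sets or genes (vertical axis) by log2 difference, long minus short (horizontal axis, bins of 0.05), for bright core ribosomal proteins, ribosome assembly genes and genes of ribosomal RNA transcription; the dashed line is the median and the solid line 0. The medians are -0.05, -0.34 and -0.27.

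Further lists held few calls. Of 6 further genes of the ribosome or its surface (RPSA, FAU, RACK1, NACA, BTF3 and SERBP1) 0 were called by limma (3 at an unadjusted p under 0.05). All 6 lay below 0, and their median was -0.12. Of 15 mRNAs that carry the same 5′ pyrimidine tract, such as EEF1A1 and PABPC1, 0 were called (limma, 3 at an unadjusted p under 0.05). Of these mRNAs 13 lay below 0, with a median of -0.08. Over all genes 58.8% lay below 0 with a median of -0.03. Of all probe sets, 22% had an unadjusted p under 0.05 in limma. In mTOR and S6 kinase signalling, 1 of 22 genes was higher and 1 lower (4.55% each), near the 3.27% and 6.24% over all genes. SESN1, a p53 target that restrains mTOR, was at 7.60 ± 0.31 (SD, n = 5) in long and 6.73 ± 0.24 (SD, n = 5) in short conceptuses, a difference of 0.87 (limma, adjusted p = 0.0133). EIF4EBP1, a translation repressor that mTOR inactivates, differed by -0.40 (limma, adjusted p = 0.0462). In ribosome quality control and p53 signalling, 1 of 13 genes (7.69%), again SESN1, was called higher, against 3.27% of all genes.

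By conceptus, the median deviation of the 61 bright core probe sets from their mean over all arrays lay between 0.01 and 0.04 in short and between -0.02 and -0.01 in long conceptuses. The groups did not overlap, and the same held for the 534 other bright probe sets, at 0.00 to 0.03 and -0.02 to -0.01. The deviation of the assembly genes was larger, at 0.04 to 0.35 in short and -0.21 to -0.07 in long conceptuses, with short replicate 5 the highest. For ribosomal RNA transcription it was 0.06 to 0.28 and -0.16 to -0.11. The conceptus without a length read -0.01 for the core proteins and 0.01 for the assembly genes.

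**Figure D4:**
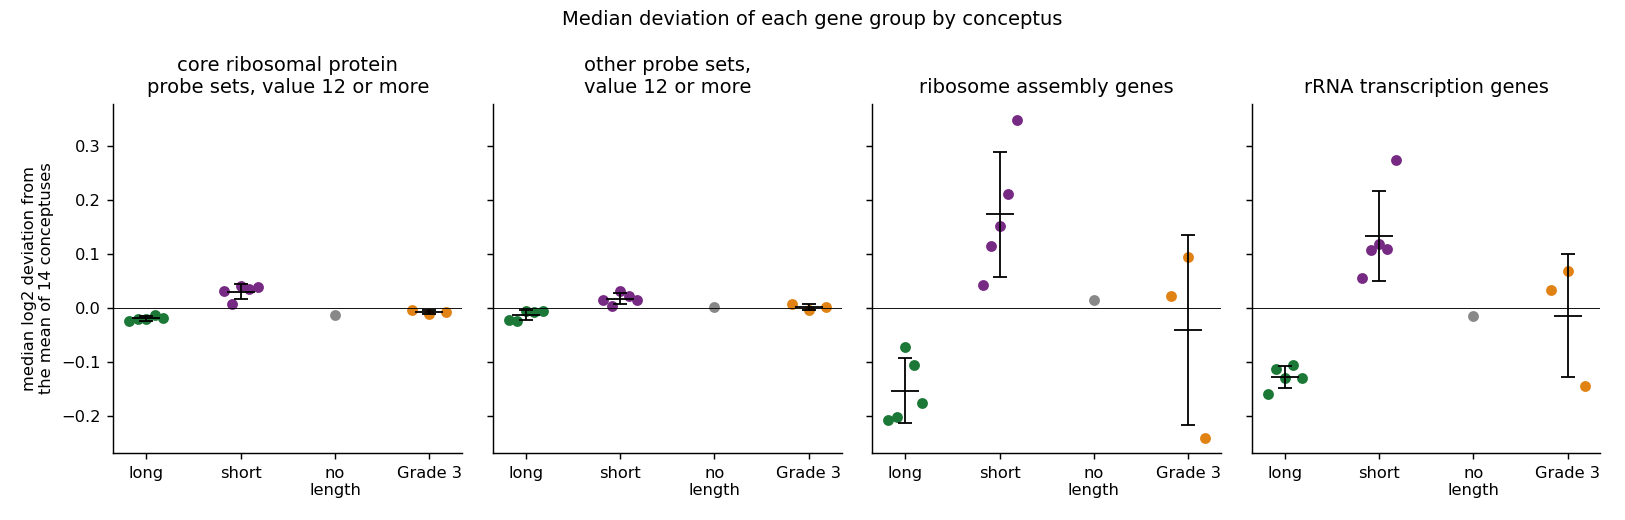
Median log2 deviation from the mean of 14 conceptuses (vertical axis) for 4 gene groups, 1 point per conceptus, with the mean and SD of each group of more than 1. Long and short conceptuses separate in every panel, the core proteins within -0.02 to 0.04 and the assembly genes within -0.21 to 0.35, and Grade 3 conceptuses span -0.24 to 0.09 for assembly genes.

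The second comparison asked whether conceptuses from poorer embryos differed from those of good ones. No ribosomal protein was called between the 3 Grade 3 and the 11 Grade 1 conceptuses, and the share called over all probe sets was 0% as well. No Grade 1 conceptus shared a title prefix with a Grade 3 one, and Grade 3 replicates 2 and 3 shared a prefix. Grade and title prefix therefore cannot be told apart. At an unadjusted p under 0.05, limma had 0 of 97 members, against 5.06% of all probe sets. The median over members was -0.02, with 70 of 97 below 0 (49.1% of all probe sets), and bright core probe sets ran from -0.09 to 0.02 with 95% intervals of 0.11 to each side at the median. The largest member differences were in probe sets under 12, namely RPS12 at 0.35 and RPL3 at -0.27, neither of them called (limma, smallest adjusted p of any member 0.986). That RPS12 probe set read 6.95, 7.04 and 7.16 in Grade 3 conceptuses and 5.83 to 7.03 in Grade 1, so 2 Grade 3 values lay just above the Grade 1 range. Groups failed to overlap in 0 of 97 members, against 0.554% of all probe sets.

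The 3 Grade 3 arrays also serve in the comparisons with each length, which therefore share them. Against long conceptuses 0 of 97 members were called (0% of all probe sets; limma, 2 members at an unadjusted p under 0.05), with a median of 0.01 and 38 of 97 below 0 (44.6% of all probe sets). Against short conceptuses 0 were called (0%; limma, 3 members at an unadjusted p under 0.05), with a median of -0.05 and 84 of 97 below 0 (51.9%). RPS27L read 10.86, 10.71 and 10.47 in Grade 3, across the space between the length groups. Ribosome assembly genes had a median of 0.11 against long and -0.22 against short conceptuses, and 0 of 80 were called in either (limma, 6 and 38 at an unadjusted p under 0.05, against 9.06% and 10.6% of all probe sets). Their deviation was 0.02, 0.09 and -0.24 in the 3 Grade 3 conceptuses, so 1 lay below every long conceptus and another above the lowest short one.

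Male and female conceptuses were compared because 3 genes of the set, RPL10, RPL36A and RPL39, lie on the X chromosome in the RefSeq gene table. All 4 X-linked member probe sets had lower means in the 6 males than in the 8 females, and 1 of them passed the test. It was the only one of 97 members called, against 0.362% of all probe sets (0.296% lower and 0.0666% higher in males) and 11.1% of 396 X-linked ones (10.4% lower in males). At an unadjusted p under 0.05, limma had 9 of 97 members, against 8.03% of all probe sets. Male and female values did not overlap in 3 of the 97 members, all X-linked, against 0.491% of all probe sets. Over the X-linked probe sets 75.8% lay below 0.

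RPL10, which joins the large subunit last, near the site of peptide bond formation, was called through 1 of its 2 bright probe sets. Its lowest, median and highest values were 13.59, 13.63 and 13.68 in males and 13.86, 13.92 and 13.99 in females. Every male lay below every female, whatever the length or grade. The means were 13.63 ± 0.03 (SD, n = 6) and 13.92 ± 0.04 (SD, n = 8), a difference of -0.30 with an SE of 0.04, or 1.23 fold (limma with grade as a covariate, adjusted p = 0.00664). The other RPL10 probe set gave 13.70 to 13.84 in males and 13.92 to 14.00 in females, a difference of -0.20 (limma, adjusted p = 0.0817).

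RPL39, a small protein of the peptide tunnel, had 13.32, 13.39 and 13.48 as lowest, median and highest values in males and 13.56, 13.62 and 13.70 in females. The sexes did not overlap, and the difference of -0.22 with an SE of 0.05 missed the threshold (limma, adjusted p = 0.0774). RPL36A passed neither test, and its values overlapped both between the sexes and between the lengths. Female short conceptuses read 13.73, 13.74 and 13.71 and female long ones 13.50, 13.54, 13.54 and 13.52. Male short conceptuses read 13.54 and 13.54 and the male long one 13.42. Within each sex every long conceptus lay below every short one, and with sex as a covariate the length difference of RPL36A was -0.18 with an SE of 0.05 (limma, adjusted p = 0.0541), against -0.15 without it.

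Grade 3 held 2 males among 3 conceptuses and Grade 1 held 4 among 11. The bright RPL10 probe sets and RPL39 differed by -0.08, -0.09 and -0.09 between Grade 3 and Grade 1, and by -0.02, -0.01 and -0.02 with sex as a covariate. The autosomal bright members differed little by sex, and RPS4Y1, with values of 13.70 to 13.81 in all conceptuses at its bright probe set, differed by -0.04. Among X-linked assembly genes, DKC1, the pseudouridine synthase, and LAS1L were lower in males by -0.58 and -0.46 on the log2 scale (limma, adjusted p = 0.0435 and 0.00156). They were the only ones called of the 80 assembly genes (2.5%), against 0.481% lower over all genes. Of the 80, 67 lay below 0 in males (83.8%), against 56.7% of all genes. The median was -0.06, against -0.01 over all genes.

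**Figure D5:**
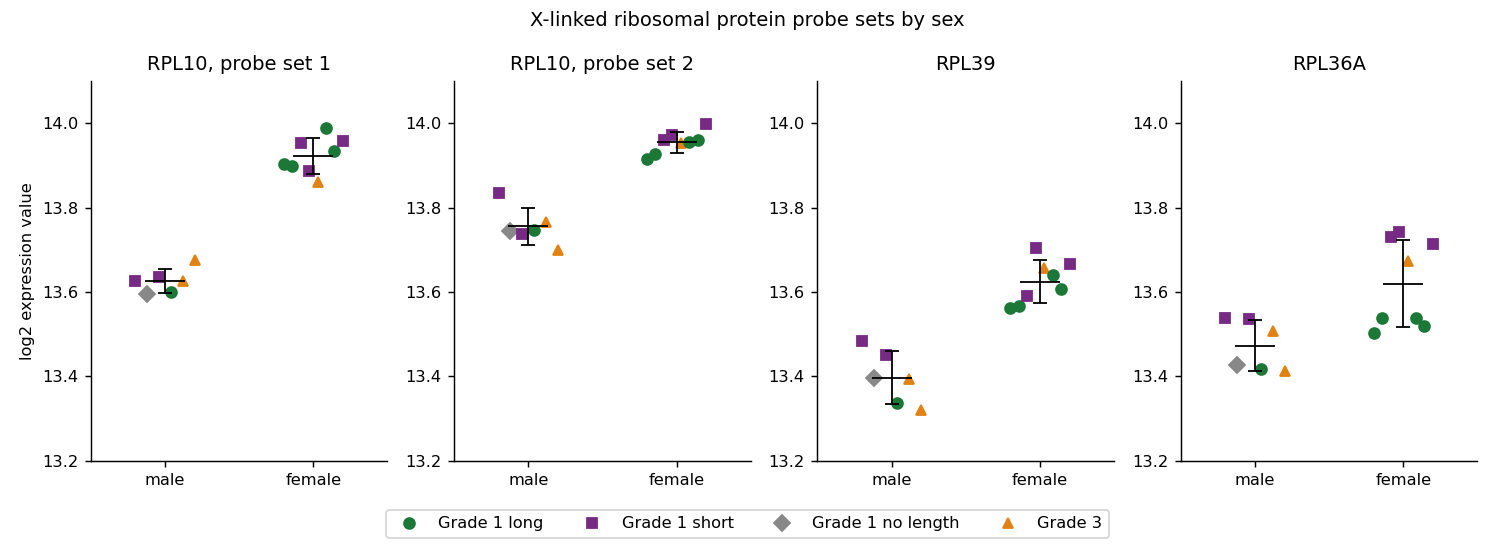
Log2 expression values (vertical axis) of the X-linked ribosomal protein probe sets by sex, with shape and colour for the group; bars give the mean and SD of 6 males and 8 females. Sexes do not overlap for RPL10 and RPL39, and for RPL36A the female long conceptuses (13.50 to 13.54) sit at the level of the male short ones.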

How the data were processed

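RNA of 14 conceptuses was labelled with biotin from 250 ng each, per the labels' protocols, and hybridised to 1 Affymetrix bovine array each. The deposited values are log2 expression values that the authors made by RMA. The submitters' processing notes name Affymetrix Expression Console as the software. Its version, and which arrays were normalised together, is not given in the sources used here. The RMA method removes a shift of all genes and compresses differences at low signal, and probes near the array's ceiling respond less to further transcript. The 112 array controls were left out of 24128 probe sets. Symbols came from the platform annotation, and all 97 members matched RefSeq (ARS-UCD2.0) by Entrez number with 0 symbols changed. Probe sets can also bind near-identical copies, and ribosomal protein genes have many processed pseudogenes.

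Length (5 and 5), grade (3 and 11) and sex (6 and 8, grade as covariate) were tested two-sided with limma 3.58.1 in R 4.3.3, Benjamini-Hochberg adjustment over 24016 probe sets, threshold 0.05. Grade 3 was set against each length in 1 model of all 14 arrays. The fit was checked on simulated data with 200 changed probe sets of any signal level. For length it recovered 0% of 1.1-fold, 14% of 1.25-fold, 66% of 1.5-fold and 92% of 2-fold changes. Of its calls there, 7.53% were false. The number of arrays limits the precision. The design text gives 4 Grade 1 conceptuses for the grade comparison without naming them, so all 11 were used.

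Members, gene lists and tests were chosen with earlier results of these data known. Named members are those called, the 8 highest and 8 lowest differences by length and 4 each by grade and sex, the 5 brightest and 5 dimmest, the paralogs with their partners, members fixed by role, and genes whose probe sets differ in sign by over 0.3. From other lists up to 6 called genes by p are named. Others (RPS10, RACK1, NACA, BTF3, SERBP1, FAU, RPSA, EEF1A1, PABPC1, DKC1, LAS1L, RPS19BP1 and the cell type markers) were named after their values were seen. Alternatives were leaving out each conceptus, other scalings, a filter at a mean of 5, title prefix as a block, sex as a covariate, the conflicting label, other variance settings and other sets of arrays. Leaving out 2 short conceptuses, sex within Grade 1 and all settings for the 2 assembly lists were added after seeing the data.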

Additional observations from a re-analysis of the deposited data

Results flagged for a closer look

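Of 120 groups of values checked for a sample far from its group (56 named probe sets), 7 held one; chance alone gives about 1 in 20. In the long group, replicate 1, its only male, was far below the others for both RPL10 probe sets, at 13.7473 against 13.9153 to 13.9596 and at 13.5997 against 13.8974 to 13.9893, and for RPL39, at 13.3375 against 13.5626 to 13.641. Long replicate 4 read 3.23387 for RPL37, against 3.5316 to 3.61482 in the other long conceptuses. Long replicate 2 read 5.82891 for an RPS12 probe set whose other long values ran from 6.80226 to 7.01254. In the short group, replicate 2 read 3.17247 for the dimmest RPS27L probe set, above 2.89019 to 2.94001 in the others. Short replicate 2 also read 13.5564 for RPS9, below 13.6432 to 13.6782 in the other short conceptuses.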

How the results depend on the processing

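The 4 members called between long and short became 0 to 3 when 1 conceptus was left out, 0 with title prefixes as fixed blocks, 0 with the conflicting conceptus as long, 0 without the 2 short conceptuses lowest on the first component (51 of all probe sets were then called), 1 among core proteins alone and 7 with trend and robust settings. The median difference of -0.048 over members was -0.055 to -0.041 when 1 conceptus was left out, -0.0663 with arrays centred on their median and -0.0292 after renewed quantile normalisation. The 46 lower assembly genes became 13 to 48 when 1 conceptus was left out, and 2, 19 and 1 with the fixed block, the conflicting conceptus as long and without the 2 short ones. The 7 lower genes of ribosomal RNA transcription became 0 to 6, and 1, 3 and 0, and 4 after quantile normalisation. The highest counts in any setting were 62 assembly genes and 9 genes of ribosomal RNA transcription. RPL3 at its dimmer probe set turned from -0.165 to 0.027 without the 2 short conceptuses. Those 2 were the short ones furthest from the long on the first component, which separated the lengths. RPS27L, RPL26L1, RPL7L1 and RPS12 lost their call in 5, 4, 5 and 9 of 10 settings without 1 conceptus, with adjusted p up to 0.0626, 0.0632, 0.0649 and 0.111 in limma, and kept their direction. Calls over all probe sets, 1577 in the main test by length, were 460 to 1697 when 1 conceptus was left out. With the fixed block they were 112, and with the conflicting conceptus as long 492. They rose to 2001 with the filter at a mean of 5 and to 2403 with sex as a covariate. All 4 member calls stayed in both of these. The cause of these changes was not tested. RPL10 stayed called by sex in all settings run (adjusted p up to 0.0328), and the count by grade was 0 in each. No paired analysis was possible because replicate numbers follow accession order and pair no conceptuses. The title prefixes, whose meaning is not stated, gave the block fit above. With fixed blocks, only the 2 prefixes that held both lengths inform the length difference.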
